A study of Rattus norvegicus with 12 samples.

Results

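Bone morphogenetic proteins (BMPs) are secreted ligands of the TGF-beta superfamily that signal through pairs of type I and type II receptor kinases to the transcription factors Smad1, Smad5 and Smad9. The Id genes are among the best known targets of this signal; they encode helix-loop-helix proteins without a DNA-binding domain, which hold back other helix-loop-helix transcription factors. Follistatin binds activins and some BMPs outside the cell, and follistatin-like 1 is a secreted glycoprotein made largely by mesenchymal cells such as fibroblasts. In the heart, BMP signalling is known for its part in development, in the response of vessels and in repair after injury.

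The 10 genes described here are Bmp2, Bmp4 and Bmp6 (ligands), Bmpr1a and Bmpr2 (receptors), Fst and Fstl1 (secreted inhibitors and relatives) and Id1, Id2 and Id3 (targets). A probe set was taken when its only gene symbol in the platform annotation was that of a member. This gave 16 probe sets for the 10 genes, of 15923 on the array, and 15 of the 16 passed the filter on dim signals, as did 10527 probe sets in all. The probe set left untested was 1368945_at, 1 of 2 for Bmp2.

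The study measured rat hearts on oligonucleotide arrays, with 1 array per rat and 3 rats in each of 4 groups. The injured rats, called IR for ischaemia followed by reperfusion, had the LAD (left anterior descending) artery of the heart closed for 30 min and then reopened, and tissue was taken after 2 d or 7 d of reperfusion. Sham rats had the surgery without closure of the artery, and were taken at the same days according to the sample titles. The design text of the series lists the 7 d sham group in duplicate and no 2 d sham group, so that every 2 d sham value below rests on the titles alone. The labels give rat heart as the source of all arrays and name the ventricle for 7 d IR replicate 44 only; strain, sex, age and the piece of ventricle taken are not stated there. Replicates of the 7 d IR group are numbered 44, 47 and 48, while all others run from 69 to 82. Whether arrays were run in batches is not stated, and a batch of the 7 d IR group alone cannot be told apart from its condition.

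Signals are on the linear MAS5 scale, and levels are compared only within a probe set. Changes are differences of log2(signal + 195.4), which understates the change of dim probe sets, with the standard error (SE) from limma and Benjamini-Hochberg adjusted p over all 10527 probe sets; a value under 0.05 was called. Of the arrays, 2 lay away from their groups in earlier results of these data, 2 d IR replicate 69 and 7 d sham replicate 82. Calls of members and other pathway genes that were lost without either array are named as such below. Of the uncalled values, only some are also given without them. The counts of marker probe sets were not refitted without them. The cardiomyocyte marker genes were bright in every sample on the brightest probe set of each, with 9 of 9 listed genes tested. A dimmer Tnnt2 probe set read 186.6 to 326.1 and did not pass the filter. The summed signal of 4 genes typical of the atrium was 20690.2 to 41563.5 in sham and 14182.5 to 20459.6 in IR hearts at 2 d, and 41693.7 to 54884.1 and 24972.1 to 49277.1 at 7 d. Since whole tissue was measured, fewer cells of a type and less RNA per cell cannot be told apart in any value below.

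The clearest change among the members was in Fstl1 at 7 d, where all 3 of its probe sets were 2.55 to 3.74-fold higher in IR than in sham hearts, and Id3 rose as well. The only call at 2 d was a lower level of the type I receptor Bmpr1a, which was lost in 5 of the 12 fits with 1 array left out. The ligands Bmp2, Bmp4 and Bmp6, the type II receptor Bmpr2, Fst, Id1 and Id2 did not pass the test in any of the 5 comparisons. To show the genes that these results and the pathway results turn on, the 250 bases before the annotated start of Fstl1, Id3, Id1 and Hamp are printed here 5′ to 3′ on the gene's strand, from RefSeq on GRCr8. Fstl1 and Id3 are shown because both rose at 7 d, and Id1 as a relative of Id3 that was not called. Hamp, the hepcidin gene, is shown as a known BMP target that differed between the IR hearts of the 2 days. Capitals mark matches of GGCGCC, a GC-rich hexamer of some BMP-responsive promoters, or of TATAAA, each searched on both strands. The windows are chr11:76454054-76454303 on the minus strand (Fstl1), chr5:153656041-153656290 on the plus strand (Id3), chr3:161671314-161671563 on the plus strand (Id1) and chr1:95300272-95300521 on the minus strand (Hamp).
Fstl1: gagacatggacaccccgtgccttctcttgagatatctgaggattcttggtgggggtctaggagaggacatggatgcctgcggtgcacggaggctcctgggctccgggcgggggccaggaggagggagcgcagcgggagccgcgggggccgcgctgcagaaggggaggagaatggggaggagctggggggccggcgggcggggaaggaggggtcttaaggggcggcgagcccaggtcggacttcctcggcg
Id3: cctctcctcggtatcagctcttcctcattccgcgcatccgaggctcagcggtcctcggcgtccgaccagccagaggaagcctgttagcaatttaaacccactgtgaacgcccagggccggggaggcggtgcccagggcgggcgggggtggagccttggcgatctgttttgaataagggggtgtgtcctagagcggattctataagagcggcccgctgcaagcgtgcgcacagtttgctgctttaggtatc
Id1: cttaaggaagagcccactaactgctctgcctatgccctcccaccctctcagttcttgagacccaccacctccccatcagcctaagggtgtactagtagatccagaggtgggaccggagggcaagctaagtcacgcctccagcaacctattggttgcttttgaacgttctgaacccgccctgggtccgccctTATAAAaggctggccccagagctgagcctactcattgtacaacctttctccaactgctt
Hamp: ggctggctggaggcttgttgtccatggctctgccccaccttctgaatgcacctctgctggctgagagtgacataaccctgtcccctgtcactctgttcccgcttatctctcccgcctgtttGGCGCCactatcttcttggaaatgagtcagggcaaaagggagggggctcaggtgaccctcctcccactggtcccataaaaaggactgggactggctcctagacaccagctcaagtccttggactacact

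Among these 4 windows GGCGCC occurred in that of Hamp, starting 129 bases before the annotated start, and TATAAA in that of Id1, starting 59 bases before it. Of 33469 RefSeq promoter windows of 250 bases, 8.69% held GGCGCC and 12.9% held TATAAA. A match describes these letters only, and a window without one says nothing about a factor that may act on the gene.

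**Figure D1:**
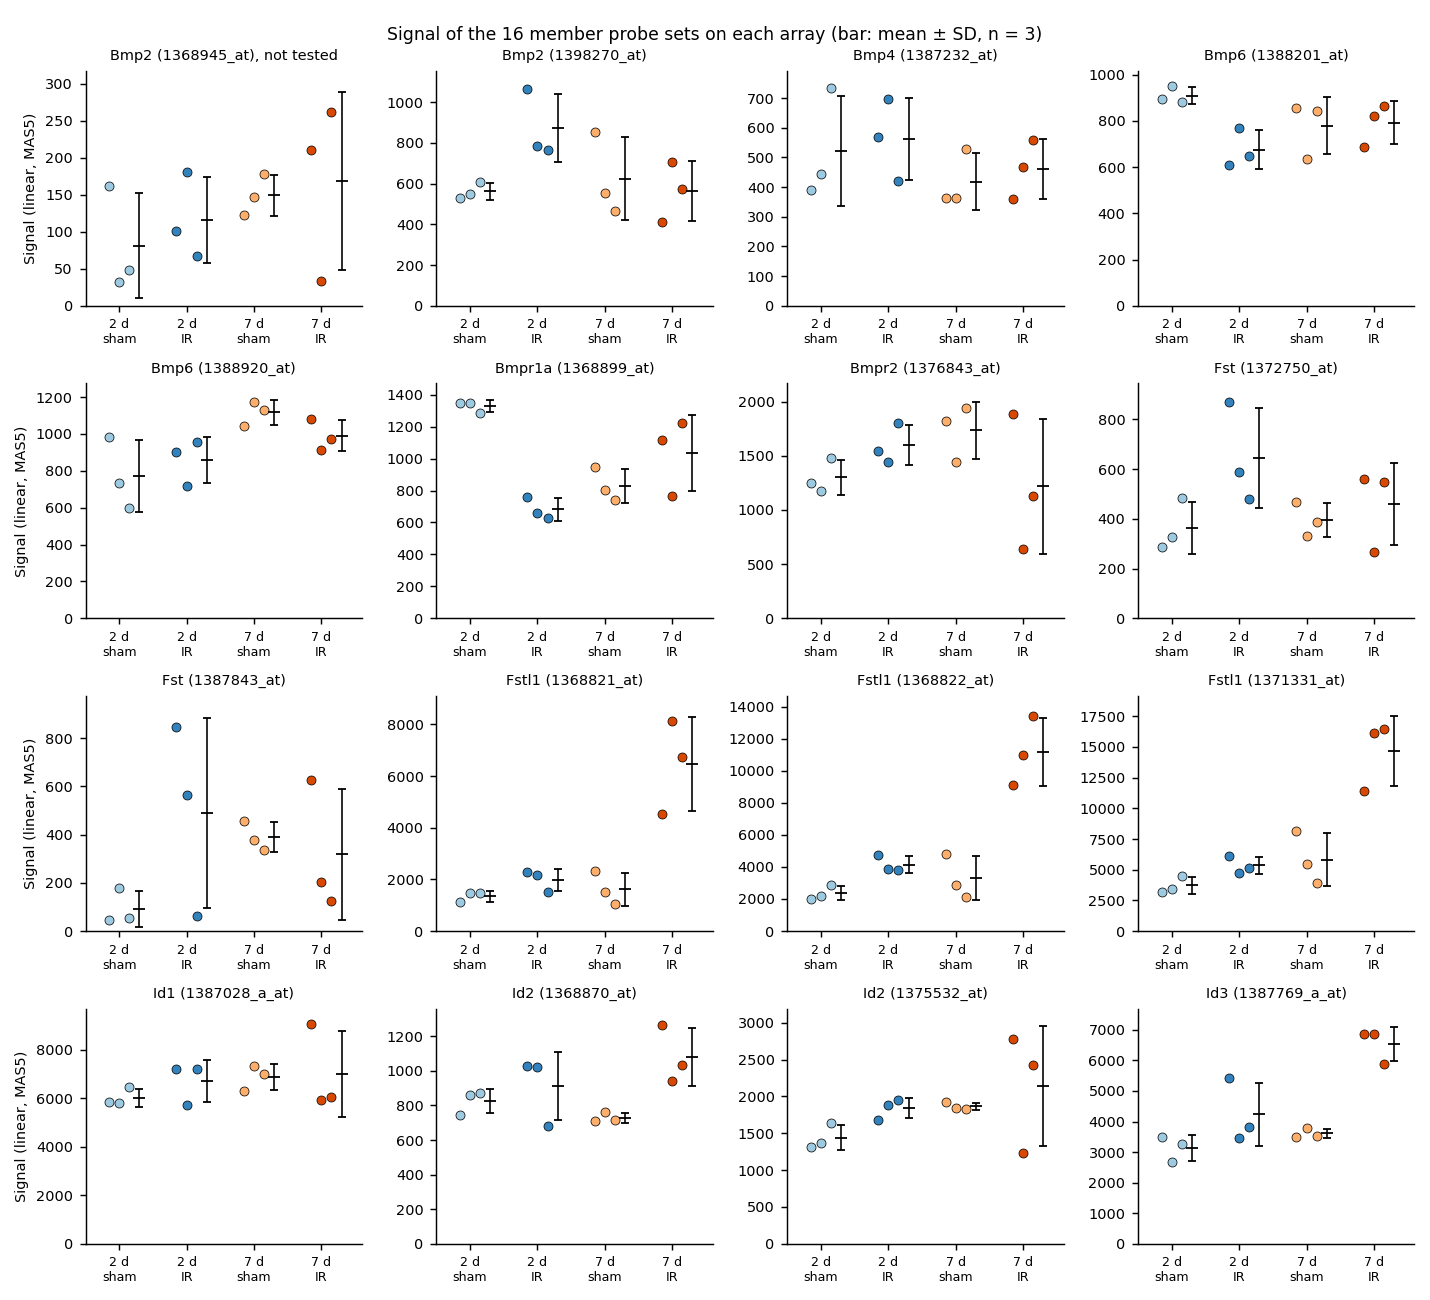
Linear MAS5 signal (vertical axes, each starting at 0) of the 16 member probe sets on each of the 12 arrays, by group; points are rats and the bar beside them is the mean ± SD of 3 rats. The 3 Fstl1 probe sets and Id3 are highest in the 7 d IR hearts without overlap with any other group, and Bmpr1a is highest in the 2 d sham hearts.

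The first comparison asked which transcripts of the pathway differed between IR and sham hearts at 2 d. Among the ligands, Bmp2 on probe set 1398270_at read 529.1, 548.0 and 607.3 in the 2 d sham hearts and 1067.5, 785.1 and 767.5 in the 2 d IR hearts. The IR arrays all lay above the sham arrays, and the change of 0.49 (SE 0.20) did not pass (limma adjusted p = 0.177). Bmp6 gave values of opposite sign on its probe sets, -0.35 (SE 0.15, adjusted p = 0.185) on 1388201_at and 0.13 (SE 0.16, adjusted p = 0.676) on 1388920_at. Bmp4 had 0.09 (SE 0.22, adjusted p = 0.864), with overlapping groups.

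Bmpr1a, a type I receptor kinase for BMPs, was the member called at 2 d. Its signal was 1346.4, 1348.6 and 1282.5 in sham hearts and 762.3, 656.3 and 627.7 in IR hearts. Every IR array thus lay well below every sham array, and the sham arrays lay close together. The gene was 1.74-fold lower after IR, a change of -0.80 (SE 0.15, adjusted p = 0.0235). The call was lost without 2 d sham replicate 71 (-0.79, adjusted p = 0.0819), 72 (-0.79, adjusted p = 0.0858) or 74 (-0.82, adjusted p = 0.0505), and without 2 d IR replicate 69 (-0.86, adjusted p = 0.0871) or 76 (-0.75, adjusted p = 0.0533). With the 7 d sham hearts as control the change was -0.22 and did not pass (adjusted p = 0.497). The 7 d sham hearts themselves read 947.3, 805.1 and 737.7, all below the 2 d sham hearts (-0.57, SE 0.15, adjusted p = 0.228).

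Markers of other cell types differed in the same hearts. Of 12 cardiomyocyte probe sets tested, 2 fell and 0 rose at 2 d, with a median change of -0.36, and the summed signal of the list was 313144.5 to 417775.9 in IR and 422521.2 to 480818.5 in sham hearts. At 7 d 8 of these 12 fell and 0 rose, with a median of -0.44, while Bmpr1a had 0.25 and was not called. Of the macrophage and monocyte markers 3 of 8 probe sets rose at 2 d, with a median change of 0.62 and a summed signal of 53231.6 to 69157.9 in IR and 27622.6 to 42291.0 in sham hearts. No marker probe set of either list was at 0 on any array. The part of these markers in the 2 d values of the members was not tested. Bmpr2, the type II partner of BMP receptors, had 0.26 (SE 0.24, adjusted p = 0.577) at 2 d and overlapping groups.

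For Fst, which encodes follistatin, 1387843_at read 45.9, 179.4 and 54.1 in 2 d sham and 843.8, 562.4 and 64.2 in 2 d IR hearts. Replicates 69 and 73 were high and replicate 76 lay among the sham arrays. The change of 1.06 (SE 0.45) did not pass (adjusted p = 0.193). It was 1.65 without replicate 76 (adjusted p = 0.0497) and 0.65 without replicate 69 (adjusted p = 0.619). The probe set was above the 40th percentile on 3 arrays only, the fewest that the filter allows. Its highest values were those of replicates 69 and 73 and 626.6 on 7 d IR replicate 44. The 2 d sham values and that of replicate 76 lay below the constant added before log2. Changes against these sham hearts thus depend on that constant. No conclusion is drawn from the pass without replicate 76. The other Fst probe set, 1372750_at, gave 0.58 (SE 0.24, adjusted p = 0.184).

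The 3 Fstl1 probe sets lay higher in every 2 d IR heart than in every 2 d sham heart, by 0.48 (SE 0.25) on 1368821_at, 0.78 (SE 0.23) on 1368822_at and 0.51 (SE 0.22) on 1371331_at. None passed with all 12 arrays (adjusted p = 0.28, 0.0757 and 0.2). The middle one of these, 1368822_at, passed when only the 6 arrays of 2 d were fitted (adjusted p = 0.0281), without 7 d sham replicate 80 (adjusted p = 0.0422) and without 7 d sham replicate 82 (adjusted p = 0.0355), at the same change of 0.78. Without 2 d IR replicate 69, its highest 2 d IR array, it had 0.68 and did not pass (adjusted p = 0.325). Nor did it pass without both replicates 69 and 82 (0.68, adjusted p = 0.17). With the 7 d sham hearts as control it had 0.38 (adjusted p = 0.417). Probe sets of 1 gene read the same RNA and do not count as separate evidence. Of the Id genes, Id3 had 0.39 (SE 0.15, adjusted p = 0.158), Id1 0.14 (SE 0.15, adjusted p = 0.643), and Id2 0.10 (SE 0.15, adjusted p = 0.767) and 0.32 (SE 0.21, adjusted p = 0.396) on its probe sets.

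In all, 1 of 15 member probe sets was called at 2 d, or 6.67%, against 2.47% of all probe sets, 1.88% higher and 0.589% lower. The groups did not overlap for 7 of the 15, 5 higher and 2 lower in IR, where 26.4% of all probe sets were apart, 13.9% higher and 12.5% lower. The median member change was 0.32, and that of all probe sets 0.0031.

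At 7 d the same comparison was made for the later hearts, and Fstl1 stood out among the members. Its brightest probe set, 1371331_at, read 8134.4, 5450.2 and 3880.9 in 7 d sham hearts and 11399.6, 16177.8 and 16461.0 in 7 d IR hearts. On 1368822_at the sham values were 4804.1, 2902.7 and 2143.4 and the IR values 9135.7, 10981.9 and 13396.8. On 1368821_at they were 2305.0, 1506.2 and 1037.8 against 4535.0, 8146.8 and 6752.3. Every IR array lay above every sham array on each probe set, and 7 d sham replicate 82 was the lowest of the sham arrays each time.

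The changes of Fstl1 at 7 d were 1.35 (SE 0.22, adjusted p = 0.00548) on 1371331_at, 1.76 (SE 0.23, adjusted p = 0.00244) on 1368822_at and 1.90 (SE 0.25, adjusted p = 0.00244) on 1368821_at, or 2.55-fold, 3.40-fold and 3.74-fold on that scale. Without 7 d sham replicate 82 they were 1.10, 1.51 and 1.66, and all 3 passed (adjusted p = 0.0243, 0.00673 and 0.00834). They also passed in each of the other 11 fits with 1 array left out. On 1371331_at the group means rose from 3713 ± 710 in 2 d sham to 5345 ± 700 in 2 d IR, 5822 ± 2151 in 7 d sham and 14679 ± 2844 in 7 d IR hearts (SD, n = 3). Of neighbours in that order, 2 d sham and 2 d IR did not differ beyond the test (0.51, adjusted p = 0.2), nor did 2 d IR and 7 d sham (-0.07 for 2 d IR minus 7 d sham, adjusted p = 0.918), whereas 7 d sham and 7 d IR did. On the other Fstl1 probe sets the 2 d IR mean lay above the 7 d sham mean. These means were 4145 and 3283 on 1368822_at, and 1982 and 1616 on 1368821_at.

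Fibroblast markers moved with Fstl1. Of 12 fibroblast probe sets, for 10 genes, 9 rose and 0 fell at 7 d, with a median change of 0.99. Their summed signal was 107897.3 to 183242.8 in 7 d sham and 230891.0 to 299802.2 in 7 d IR hearts, and no marker was at 0. 7 d sham replicate 82 was the lowest sham array for this list as it was for Fstl1, with a mean log2 level 0.53 below the average of its group (-0.53), against 0.26 and 0.27 on replicates 80 and 81. Of the macrophage and monocyte markers, 6 of 8 probe sets rose at 7 d, with a summed signal of 28645.7 to 49300.6 in sham and 65088.6 to 85757.2 in IR hearts. Replicate 82 was the lowest sham array for that list too, at -0.47, against 0.27 and 0.20 on replicates 80 and 81. It was also the lowest for the smooth muscle and pericyte list, at -0.20, against 0.25 and -0.05. Its low place was thus not particular to the fibroblast list. The cardiomyocyte list went the other way, with 8 of 12 probe sets lower, for 7 of 9 genes, and a summed signal of 296261.2 to 319252.5 in 7 d IR and 392739.6 to 468911.2 in 7 d sham hearts, without overlap. The part of any of these cell types in the Fstl1 signal was not tested.

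**Figure D2:**
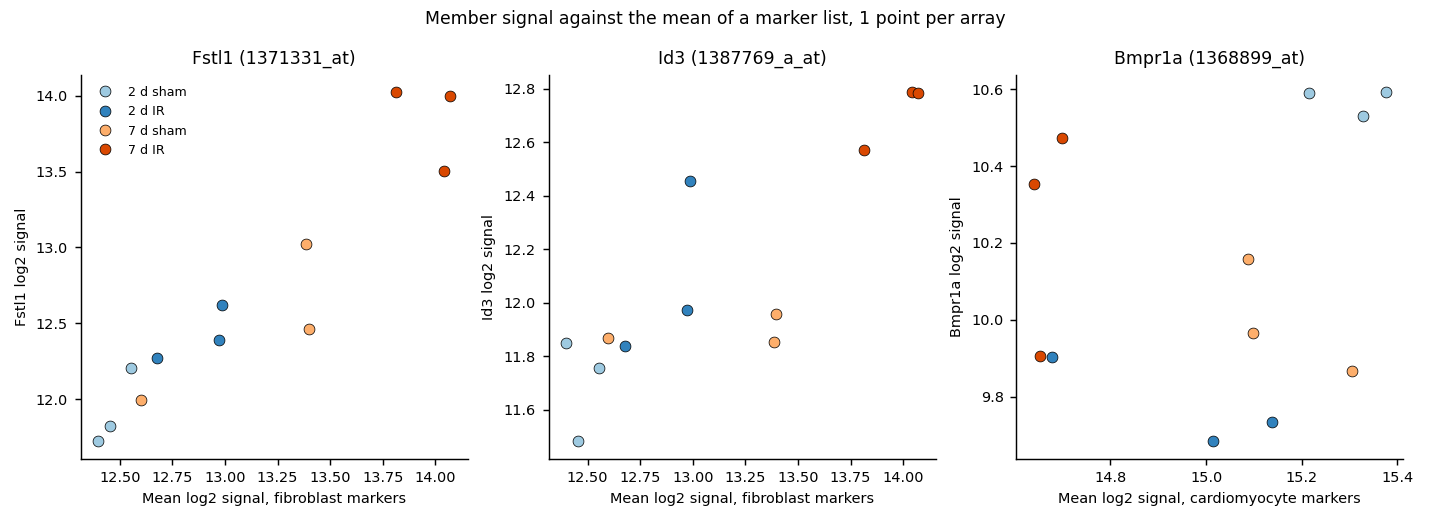
Log2 signal of Fstl1, Id3 and Bmpr1a (vertical axes) against the mean log2 signal of a marker list (horizontal axes; fibroblast for Fstl1 and Id3, cardiomyocyte for Bmpr1a), 1 point per array and 1 colour per group. The 7 d IR arrays lie at the upper right for Fstl1 and Id3, and the 2 d sham arrays at the upper right for Bmpr1a. Each gene is plotted against 1 list only. The macrophage and monocyte list, not plotted, was also higher in every 7 d IR heart than in every 7 d sham heart.

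Id3 was also higher at 7 d. Its signal was 3508.7, 3784.7 and 3540.8 in 7 d sham and 6878.2, 6859.9 and 5884.8 in 7 d IR hearts, so that the sham arrays lay close together and every IR array lay above them. The gene was 1.77-fold higher in IR hearts (0.82, SE 0.15, adjusted p = 0.00828). It passed in each of the 12 fits with 1 array left out (0.78 to 0.89, adjusted p at most 0.0383), and was called at 1.02 with the 2 d sham hearts as control. Its group means rose in the order 2 d sham (3140 ± 426), 7 d sham (3611 ± 151), 2 d IR (4234 ± 1040) and 7 d IR (6541 ± 568; SD, n = 3). Of neighbours in it, the sham groups did not differ beyond the test (0.20, adjusted p = 0.709), nor did 7 d sham and 2 d IR (0.19, adjusted p = 0.561), whereas the IR groups did (0.63, adjusted p = 0.0369). The call between the IR groups was lost in 6 of the 12 fits with 1 array left out.

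Neither Id1 nor Id2 was called at 7 d. Id1 read 6288.3, 7337.5 and 7014.9 in 7 d sham and 9053.0, 5950.6 and 6040.2 in 7 d IR hearts, with IR replicate 44 high and the other IR arrays below the sham arrays. Its change was 0.003 (SE 0.15, 95% interval -0.32 to 0.33, adjusted p = 0.992). Id2 on 1368870_at read 709.9, 762.5 and 714.3 in sham and 1267.0, 944.1 and 1032.5 in IR hearts, without overlap. The change of 0.46 (SE 0.15) did not pass (adjusted p = 0.0681), and leaving out 2 d IR replicate 76 brought it past the threshold (adjusted p = 0.0473). On its other probe set, 1375532_at, Id2 had 0.12 (SE 0.21, adjusted p = 0.757), with IR values of 2775.6, 1229.2 and 2423.7. Whether the change of Id3 differed from that of Id1 or Id2 was not tested. Endothelial markers, listed because Id1 and Id3 are known in vessels, were called for 1 of 9 probe sets at 7 d, with a summed signal of 16583.5 to 19977.9 in sham and 20169.0 to 20691.8 in IR hearts.

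No receptor and no ligand was called at 7 d. Bmpr2 read 1818.3, 1441.9 and 1943.7 in sham and 1882.3, 642.9 and 1132.1 in IR hearts, with IR replicate 44 among the sham values. The change of -0.54 (SE 0.24) did not pass (adjusted p = 0.16); without replicate 44 it was -0.86 and passed (adjusted p = 0.032). Bmpr1a had 0.25 (SE 0.15, adjusted p = 0.319), Bmp2 -0.10 (SE 0.20, adjusted p = 0.783) and Bmp4 0.10 (SE 0.22, adjusted p = 0.815). Bmp6 had 0.02 (SE 0.15) and -0.15 (SE 0.16), and Fst 0.12 (SE 0.24) and -0.31 (SE 0.45), none of them past the threshold.

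At 7 d, 4 of 15 member probe sets were called, or 26.7%, all higher, against 12.1% of all probe sets in either direction 6.22% higher and 5.85% lower. Of the 4, 3 belong to Fstl1, so that the count is of 2 genes of 10. The groups did not overlap for 5 of the 15, or 33.3%, all higher, against 32.4% of all, 16.6% higher. The median member change was 0.12, against 0.0073 for all probe sets. Over the array as a whole the called probe sets at 7 d were 655 higher and 616 lower, and 474 and 777 after median centring of the arrays. At 2 d they were 198 and 62, and 173 and 104 after centring. Each call of a member held under median centring and under quantile normalization.

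**Figure D3:**
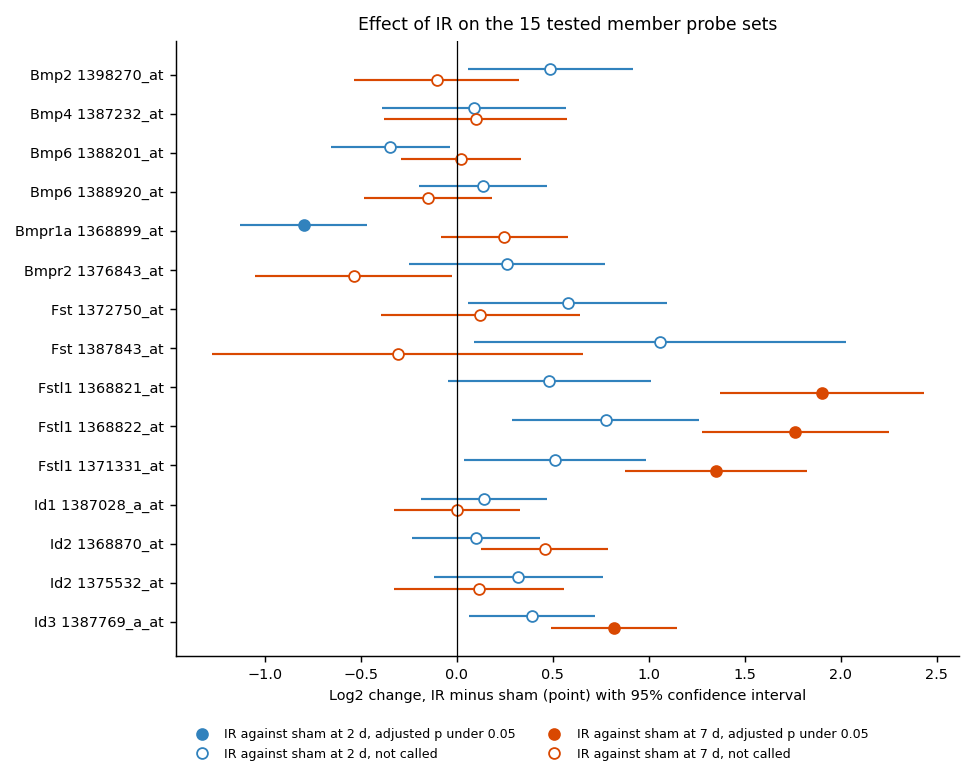
Log2 change of IR minus sham (horizontal axis) with its 95% confidence interval for the 15 tested member probe sets at 2 d (blue) and 7 d (orange); filled points have an adjusted p under 0.05. The 3 Fstl1 probe sets reach 1.35 to 1.90 at 7 d, Id3 0.82, and Bmpr1a -0.80 at 2 d.

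Whether the effect of IR differed between the days was tested as the difference of the effects, 7 d minus 2 d. No member passed (5 of 15 at an unadjusted p under 0.05), and 1 of 10527 probe sets did, or 0.0095%; at an unadjusted p under 0.05 limma gave 752 over the array. The members with the largest differences were Fstl1 on 1368821_at (1.42, SE 0.35, adjusted p = 0.33), Fst on 1387843_at (-1.37, SE 0.64, adjusted p = 0.695) and Bmpr1a (1.04, SE 0.22, adjusted p = 0.228). For Bmpr1a the 2 d effect was a decrease and the 7 d value an increase that did not pass. The calls at 2 d and at 7 d are thus not shown to differ between days.

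The IR hearts of the 2 days were also compared directly. Fstl1 was higher at 7 d on each probe set, by 1.41 (SE 0.22, adjusted p = 0.0024) on 1371331_at, where the 2 d IR hearts read 6116.9, 4751.5 and 5165.5. The others had 1.38 (SE 0.23, adjusted p = 0.00329) and 1.60 (SE 0.25, adjusted p = 0.00234), and all 3 passed in each of the 12 fits with 1 array left out. Id3 was higher at 7 d by 0.63 (SE 0.15, adjusted p = 0.0369), from 5415.9, 3462.1 and 3823.6 at 2 d. The highest of these 2 d IR values was that of replicate 69. The Id3 call was lost without 2 d sham replicate 74 (0.63, adjusted p = 0.0527), 2 d IR replicate 73 (0.50, adjusted p = 0.171) or 76 (0.57, adjusted p = 0.136), and 7 d IR replicate 44 (0.59, adjusted p = 0.115), 47 (0.59, adjusted p = 0.127) or 48 (0.70, adjusted p = 0.0534).

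Bmp2 lay lower in every 7 d IR heart, at 410.6, 705.6 and 572.6, than in every 2 d IR heart, and its change of -0.50 (SE 0.20) did not pass (adjusted p = 0.215). Bmpr1a lay higher in every 7 d IR heart, at 1113.4, 764.7 and 1224.9, with 0.47 (SE 0.15, adjusted p = 0.118); without 7 d IR replicate 47 it had 0.64 and passed (adjusted p = 0.0408). In this comparison 4 of 15 member probe sets were called, all higher, against 3.45% of all probe sets, 2.45% being called higher. Groups were apart for 6 of 15, 5 higher and 1 lower, against 20.5% of all, 10.6% higher and 9.91% lower. Fibroblast markers were higher at 7 d here as well, with 10 of 12 probe sets called and a summed signal of 112764.9 to 139003.7 in the 2 d IR hearts; their part in the change of Fstl1 and Id3 was not tested.

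Sham hearts of the 2 days were compared to see how the controls shifted. No member was called, against 0.076% of all probe sets, 0.057% higher and 0.019% lower. At an unadjusted p under 0.05 limma gave 4 of the 15, against 992 of 10527 over the array. Groups were apart for 6 of 15 member probe sets, or 40%, against 14.3% of all, 7.27% higher and 7.07% lower. Besides Bmpr1a, these were Id3 (0.20, SE 0.15), Fst on 1387843_at (1.05, SE 0.45, adjusted p = 0.493), Id2 on 1375532_at (0.34, SE 0.21), and Bmp6 on both of its probe sets, with opposite signs (-0.19, SE 0.15, and 0.46, SE 0.16). This comparison shares its sham arrays with the IR comparisons, so that these values are not independent of them.

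Beyond the members, 64 other genes of the pathway were listed by role, of which 44 have a probe set with their symbol alone and 33 have one that was tested, 41 probe sets in all. At 2 d, 0 of the 41 passed, against 2.47% of all probe sets. At an unadjusted p under 0.05 limma gave 4 of the 41, against 2259 of 10527 over the array. At 7 d, 4 rose and 1 fell, or 12.2%, against 12.1% of all probe sets called. The 5 were Smad1, Nbl1, Twsg1, Bmp1 and Id4. Each of these 5 calls was lost without 7 d sham replicate 82, where 175 of 10527 probe sets were called over the array. Between the IR hearts, 3 of the 41 were higher at 7 d (Nbl1, Twsg1 and Bmp1) and 1 lower (Hamp). Of all probe sets 3.45% were called there, 2.45% higher and 0.997% lower. The median change of the list was -0.03 at 2 d and 0.06 at 7 d.

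Extracellular modulators held 3 of the 5 calls, of 5 probe sets tested. Twsg1, twisted gastrulation, binds BMPs and chordin. It read 1648.7, 1761.4 and 1625.0 in 7 d sham and 2830.5, 2288.0 and 2665.5 in 7 d IR hearts, while the 2 d IR hearts had 1309.3, 1252.4 and 1518.3. The 7 d IR arrays were above all others, with 0.57 against sham (SE 0.12, adjusted p = 0.0128) and 0.84 against 2 d IR (SE 0.12, adjusted p = 0.00186). The first of these calls was lost without 7 d sham replicate 82 (0.55, adjusted p = 0.0591) or 7 d IR replicate 44 (0.51, adjusted p = 0.0544). The second held in each of the 12 fits with 1 array left out.

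Nbl1, a secreted BMP antagonist of the DAN family, read 1139.8, 1157.0 and 491.1 in 7 d sham and 1460.9, 2972.9 and 2033.4 in 7 d IR hearts. The groups did not overlap, and the change was 1.08 (SE 0.26, adjusted p = 0.0188). It was lost without 7 d sham replicate 82 (0.76, adjusted p = 0.0845) or 7 d IR replicate 47 (0.84, adjusted p = 0.0777). Against 2 d IR it had 1.00 (SE 0.26, adjusted p = 0.0487), a call lost in 8 of the 12 fits with 1 array left out (0.76 to 1.23, adjusted p up to 0.205). The arrays whose removal ended it were all 6 of 2 d and 7 d IR replicates 47 and 48.

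Bmp1, which despite its name is a protease that trims procollagens and cleaves chordin, read 869.8, 1104.1 and 975.5 in 7 d sham and 1848.3, 1499.3 and 1811.6 in 7 d IR hearts. It rose by 0.70 (SE 0.15, adjusted p = 0.0131), a call lost without 7 d sham replicate 82 (0.70, adjusted p = 0.056) or 7 d IR replicate 44 (0.65, adjusted p = 0.0532). Against 2 d IR it had 0.75 (SE 0.15, adjusted p = 0.0138). That call was lost without 2 d IR replicate 73 (0.71, adjusted p = 0.0636) or 76 (0.66, adjusted p = 0.0698), and without 7 d IR replicate 44 (0.70, adjusted p = 0.0594) or 48 (0.71, adjusted p = 0.056). The uncalled modulators included Bambi, a pseudoreceptor, with 0.06 (SE 0.20) at 7 d, and Sostdc1, a secreted antagonist, with -0.37 (SE 0.25, adjusted p = 0.36).

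Among the signal transducers, 1 of 17 probe sets was called at 7 d. Smad1, which carries the BMP signal to the nucleus, read 1571.5, 1711.9 and 1341.3 in 7 d sham and 2467.1, 2593.4 and 2252.5 in 7 d IR hearts on 1389373_at, without overlap (0.60, SE 0.16, adjusted p = 0.024). The call was lost without 7 d sham replicate 82 (0.52, adjusted p = 0.111), 7 d IR replicate 44 (0.59, adjusted p = 0.0728) or 7 d IR replicate 47 (0.56, adjusted p = 0.0777). The other Smad1 probe set gave 0.58 (SE 0.19) and did not pass (adjusted p = 0.0562). Smad4, the common partner, had 0.13 (SE 0.18) and 0.20 (SE 0.18), and the inhibitory Smad6 0.09 (SE 0.22), none of them called. Another Smad6 probe set, 1377467_at, did not pass the filter on dim signals. In the limma fit without the filter it had -0.78 at 7 d (SE 0.27, adjusted p = 0.117). The probe sets of Smad7, another inhibitory Smad, ran from -0.09 to 0.05.

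No other ligand and no other receptor passed in any comparison, with 4 and 6 probe sets tested. Endoglin (Eng), a co-receptor of endothelium, had 0.44 (SE 0.15, adjusted p = 0.116) at 2 d and 0.19 (SE 0.15, adjusted p = 0.444) at 7 d. The type I receptors Acvr1 and Acvrl1 had 0.18 (SE 0.13) and 0.27 (SE 0.15) at 7 d. Inhba, which encodes a subunit of the activins that follistatin binds, had -0.18 (SE 0.22) at 2 d and -0.42 (SE 0.22, adjusted p = 0.22) at 7 d.

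Of the targets and Id partners, Id4 fell at 7 d on the probe set tested, while Id3 rose. Id4 on 1375183_at read 643.8, 645.5 and 703.5 in 7 d sham and 274.3, 301.5 and 320.6 in 7 d IR hearts, with the groups far apart (-0.80, SE 0.17, adjusted p = 0.0124). The call was lost without 7 d sham replicate 82 (-0.77, adjusted p = 0.0593). The other Id4 probe set, 1375120_at, did not pass the filter and did not show the fall. In the limma fit without the filter it had -0.05 at 7 d (SE 0.27, adjusted p = 0.943). The 2 d hearts lay between, at 453.3 to 618.4 in sham and 377.9 to 506.9 in IR (-0.11, SE 0.17, adjusted p = 0.767). Of the E proteins that Id proteins bind, Tcf3 was too dim to be tested, and Tcf4 and Tcf12 were not called at 7 d, with 0.06 (SE 0.11) and -0.07 (SE 0.12) for Tcf4 and 0.40 (SE 0.23) and 0.05 (SE 0.17) for Tcf12.

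Hamp, which encodes the iron hormone hepcidin, read 3060.7, 3404.2 and 3811.1 in sham and 14705.4, 5427.3 and 4556.9 in IR hearts at 2 d. At 7 d it read 3355.7, 4648.7 and 2031.3 in sham and 1689.5, 1496.6 and 2283.7 in IR hearts. Replicate 69 was by far the highest 2 d IR array. The 2 d IR hearts lay above their sham hearts without passing (1.03, SE 0.35, adjusted p = 0.111), and by 0.52 without replicate 69 (adjusted p = 0.442). At 7 d the change was -0.76 (SE 0.35, adjusted p = 0.168). It passed at that size without 2 d IR replicate 69 (adjusted p = 0.0422). Without 7 d sham replicate 82 it was -1.06 (adjusted p = 0.114), and without both of these arrays it was -1.06 and passed (adjusted p = 0.0128). Hamp was lower in the 7 d than in the 2 d IR hearts by 1.88 on the log2 scale (-1.88, SE 0.35, adjusted p = 0.0064), and by -1.38 without replicate 69, where it still passed.

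**Figure D4:**
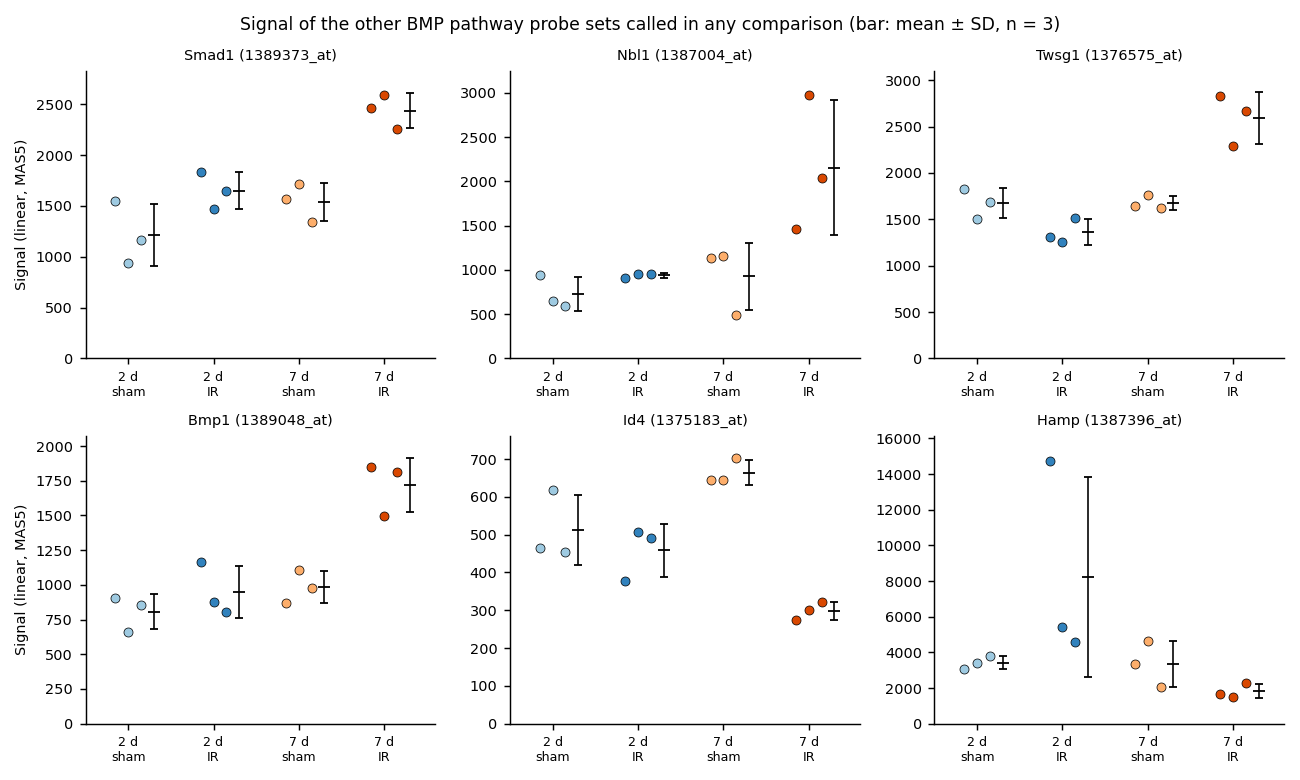
Linear MAS5 signal (vertical axes from 0) on each array, by group, of the 6 probe sets of other BMP pathway genes that were called in any comparison; bars are the mean ± SD of 3 rats. Smad1, Nbl1, Twsg1 and Bmp1 are highest and Id4 lowest in the 7 d IR hearts, and Hamp reaches 14705.4 on 2 d IR replicate 69.

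The genes most like each called member over the 12 arrays were found by Pearson correlation of log2 signals among 7719 other genes. For Fstl1 they were Synpo (0.966), Arf3 (0.963) and Srpx2 (0.957). For Id3 they were Elk3 (0.964), Ralb (0.948) and Man2a1 (0.948), and for Bmpr1a Khnyn (0.858), Fem1c (0.792) and Micu2 (0.788). The 12 points share the group structure of the study, so that these values describe likeness of pattern only.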

How the data were processed

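Rat heart RNA, labelled with biotin per the labels, was measured on 12 arrays. The authors deposited 1 linear intensity for each probe set; MAS5 is the tool named in the submitters' processing notes, with no version. Leaving out the top and bottom 2%, array means were 1500.4 to 1500.5, so the deposited intensity values had been scaled per array. The number of arrays limits the precision.

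The 57 control probe sets were left out, and a probe set was tested if 3 or more arrays had it above their 40th percentile. The 195.4 added before log2 is the median, over arrays, of the 20th percentile. With limma 3.58.1 (R 4.3.3), 1 mean per group was fitted to the 12 arrays together, with an intensity trend and two-sided tests. The fit was tested on simulated data. Intervals cover 95%.

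Genes were named from 12789 probe sets with 1 symbol in the platform annotation; all 10 members were found by gene identifier in RefSeq. Named were all member probe sets, the other pathway genes called in any comparison, up to 4 uncalled ones per role as examples, and the 3 genes most alike to each called member. Members, lists and tests were chosen with earlier results of these data known. Markers covered cardiomyocytes, fibroblasts, endothelium, macrophages, smooth muscle with pericytes, and atrium; of the smooth muscle and pericyte list 2 of 8 probe sets rose at 7 d and 0 at 2 d, and of the atrium list 1 of 4 fell at 7 d and 0 at 2 d. Nothing in the labels says how rats were assigned; p-values measure the spread between these rats.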

Additional observations from a re-analysis of the deposited data

How the results depend on the processing

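No paired analysis was possible because the groups share no replicate numbers. The counts of member probe sets called at 7 d (4), between the IR groups (4), between the sham groups (0) and for the difference of effects (0) stayed within 1.5 times under every alternative run. At 2 d the count was 1, and with dim probe sets kept, or against the other day's sham hearts, it was 0. It was 2 when only the arrays compared were fitted, and 0 to 2 with each array left out in turn. No called value changed sign. The 87 uncalled values were refitted 1685 times in all, and 48 refits changed their sign and 9 gained a call. The Id3 call between the IR groups was also lost without the filter, without the intensity trend and with only the arrays compared (adjusted p = 0.0582, 0.0665 and 0.0809), and the Nbl1 call there with a pseudocount of 16, without the filter, under either normalization and without the trend. Over the array, 260 probe sets were called at 2 d (2 to 515 with an array left out) and 1271 at 7 d (175 to 1463, the lowest without 7 d sham replicate 82). Between the IR groups 363 were called (192 to 439, and 556 without both arrays that lay away from their groups), and between the sham groups 8 (1 to 76). Without those 2 arrays the last count was 83, and the 7 d count 541; with the other day's sham hearts it was 2505 at 7 d, and at 2 d without the trend 68.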

Other observations

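A second probe set of Bmp1, 1371127_at, lay under the filter on dim signals and was not among those tested. It read 796.5, 1681.0 and 442.6 in the 7 d IR hearts, and 54.8 to 191.7 on the other 9 arrays, all below the 195.4 added before log2. In the limma fit without the filter it passed at 7 d (adjusted p = 0.0137) and against the 2 d IR hearts (adjusted p = 0.00656), and no fold is given against signals that dim. The untested Bmp2 probe set read 32.1 to 262.0 over the 12 arrays, with 0.19 (SE 0.25) at 2 d and 0.02 (SE 0.25) at 7 d in the same fit, neither of them called.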
